A study of Mus musculus with 2 samples.

Results

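The genes described here encode the nuclear subunits of the respiratory chain complexes and of ATP synthase, with some of the factors that assemble them. They were chosen by symbol: every protein-coding gene record of GENCODE M21 outside the mitochondrial chromosome whose name begins with Nduf, Uqcr, Sdh, Atp5, Cox4, Cox5, Cox6, Cox7 or Cox8. The rule found 98 gene records with 97 symbols among 21938 protein-coding records, because Atp5o has 2 records. DNase-seq had been run on frontal cortex of female B6CASTF1/J mice, an F1 hybrid of the laboratory strain C57BL/6J and the wild-derived strain CAST/EiJ, aged 14 days. The data hold 2 libraries labelled as biological replicates 1 and 2 of this 1 group, with no treatment, genotype contrast or second tissue. Both carry the same donor label and the mark 3x, which is not explained, so it is not known whether tissue of several animals was pooled or how far the replicates are independent.

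Oxidative phosphorylation passes electrons from NADH through complex I, or from succinate through complex II, to ubiquinone, then through complex III and cytochrome c to complex IV, which reduces oxygen. Complexes I, III and IV pump protons across the inner mitochondrial membrane, and ATP synthase lets them flow back to make ATP. The brain depends on this pathway for most of its energy. Several complex IV subunits exist as a form found in nearly all tissues and a form of muscle, lung or testis, each from its own gene. DNase I cuts DNA that is not covered by nucleosomes, so a peak of cutting marks an accessible site, and a footprint is a short stretch inside such a site that is protected from cutting.

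Replicate 1 had 93641 peaks and 234094 footprints, and replicate 2 had 66196 peaks and 154015 footprints. Peak strength is the authors' signal, normalized for read depth on a scale that is not stated. In each library every strength was a whole multiple of a smallest step, within 0.05 steps. If 1 step is 1 cut, replicate 1 was 1.28 times as deep, and the total number of reads is unknown. The tissue label was set beside marker genes. A promoter peak in both libraries was found at 8 of 10 neuronal genes, 6 of 8 astrocyte genes, 2 of 8 oligodendrocyte genes, 0 of 6 microglial genes, 1 of 6 endothelial genes and 0 of 7 pericyte and mural genes. Gad1 and Slc17a7, the neuronal genes outside that count, had one in replicate 1 alone. Of all protein-coding records, 58.8% had one in both libraries.

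Nearly all respiratory genes had an accessible promoter. A promoter peak, meaning a peak that reaches within 500 bp of any GENCODE transcription start site (TSS), was present in both libraries at 90 of 98 respiratory records (91.8%), against 58.8% of all protein-coding records. Each library alone gave the same 90, and the other 8 had none in either library. Such a peak was called in both libraries at all 36 complex I genes, all 4 complex II genes and all 8 complex III genes. Of the ATP synthase records 17 of 18 did, of the assembly factors 11 of 12, and of the complex IV genes 14 of 20. With the shorter of the authors' peak lists the count was 89, against 52.4% of all protein-coding records. The count fell to 56 (57.1%, against 49.1% of all protein-coding records) when peaks that also lay within 500 bp of another coding gene's TSS were left out.

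The accessible promoters were also stronger than the typical one. The strongest promoter peak of each gene had a median strength of 4.18 in replicate 1 and 2.68 in replicate 2 over the respiratory genes, a mean of 3.43 ± 1.06 (SD, n = 2). Over all protein-coding genes with such a peak the medians were 2.70 and 1.87. The median respiratory promoter stood at percentile 71.8 of protein-coding promoters in replicate 1 and at 71.4 in replicate 2. No respiratory promoter fell in the weakest decile in either library, while 11 in replicate 1 and 16 in replicate 2 fell in the strongest decile, where an equal share would be 9. Assembly factors had the highest class medians (4.95 and 3.40 in replicates 1 and 2) and complex IV genes had the lowest in replicate 1 and in replicate 2 (3.01 and 2.21). Within complex IV, the 2 highest promoters by mean rank were those of Cox6c, at 5.93 in replicate 1 and 3.92 in replicate 2, and Cox6a1. The design gives no groups to test against each other, and each share or median is a description of these libraries.

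**Figure D1:**
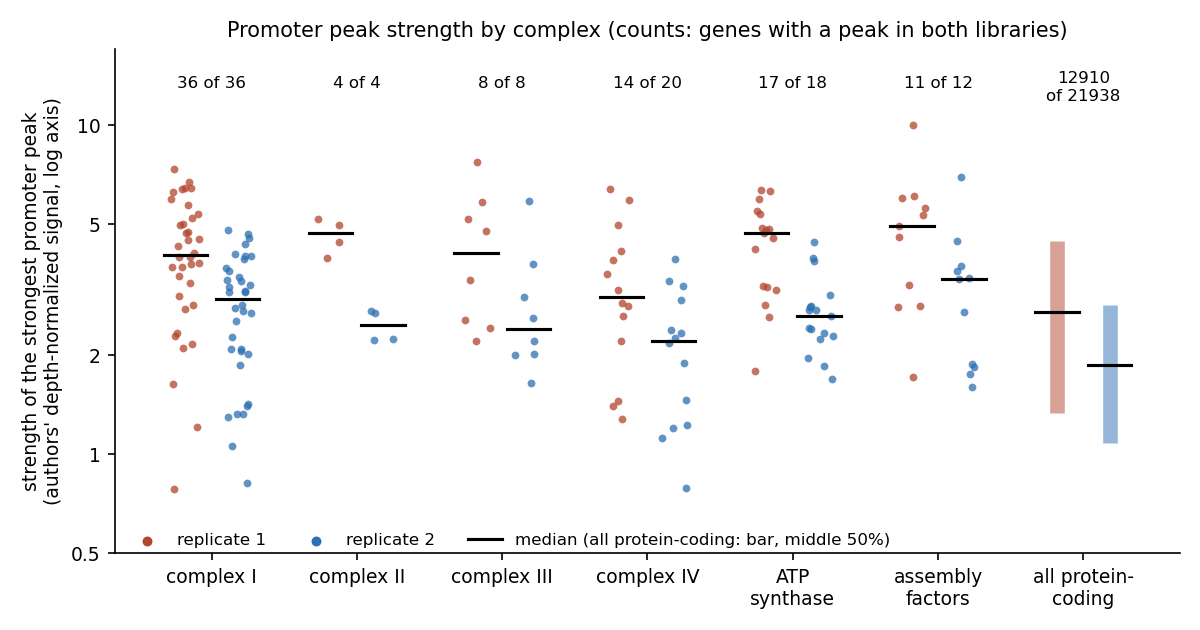
Strength of the strongest promoter peak of each respiratory gene (points, log axis, authors' depth-normalized signal) by complex, in replicate 1 and replicate 2, with black lines at the medians and, at the right, the median and middle 50% of all protein-coding promoters. The medians of all 6 classes lie above those of all protein-coding promoters (2.70 in replicate 1 and 1.87 in replicate 2), and the numbers at the top count genes with a peak in both libraries.

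**Figure D2:**
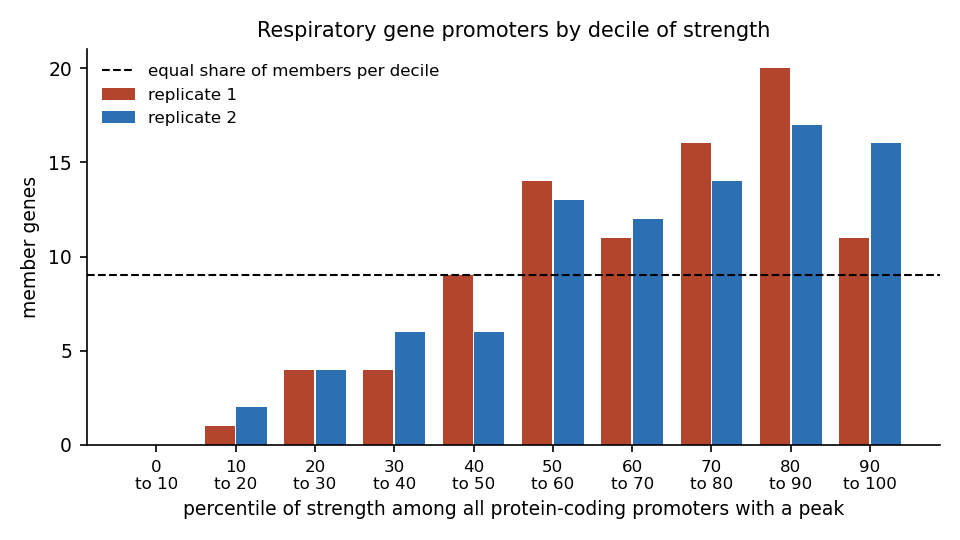
Number of respiratory genes in each decile of promoter strength among all protein-coding promoters with a peak, in replicate 1 and replicate 2; the dashed line marks 9 genes, an equal share of the 90. The lowest decile is empty in both libraries, and the decile from percentile 80 to 90 holds 20 genes in replicate 1 and 17 in replicate 2.

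Complex I, the NADH dehydrogenase, held both strong and weak promoters. Ndufa7, an accessory subunit, reached 7.37 in replicate 1 and 4.01 in replicate 2 at chr17:33824441-33824660, and Ndufb5, another accessory subunit, reached 6.44 and 4.68. Ndufs7, a core subunit that carries an iron-sulfur cluster next to the ubiquinone site, reached 6.26 and 4.79. The weakest respiratory promoter of replicate 1 was that of Ndufa13, an accessory subunit, at 0.784 in replicate 1 and 0.815 in replicate 2, which is percentile 12.6 and 15.7. Ndufc2, also accessory, stood at 1.21 and 1.30. Among X-linked genes, Ndufa1 stood at 1.63 and 1.06 and Ndufb11 at 2.16 and 1.32, in percentile 31.1 and 41.0 in replicate 1.

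Complex II, which is also the succinate dehydrogenase of the citric acid cycle, varied little. Its flavoprotein gene Sdha stood at 4.42 and 2.73 in replicates 1 and 2, and Sdhb, which holds the iron-sulfur clusters, at 4.97 and 2.23. The membrane anchors Sdhc and Sdhd stood at 5.19 and 2.68 and at 3.95 and 2.24. The order of the 4 genes was not the same in both libraries. In complex III, Uqcrq, a small subunit, was strongest, with 7.70 in replicate 1 at chr11:53430881-53431260 and 5.86 in replicate 2. Uqcrh, the acidic hinge subunit next to cytochrome c1, stood at 5.18 and 3.78, the second of the complex in replicate 2, while Uqcrfs1 was the second in replicate 1. Uqcrb was the weakest of the complex in replicate 1, with 2.20 and 2.02, and the core protein gene Uqcrc2 in replicate 2, with 2.41 and 1.64.

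Among ATP synthase genes, Atp5b, the catalytic beta subunit, stood at 5.96 in replicate 1 and 4.42 in replicate 2 at chr10:128083001-128083360. The proton-carrying ring of subunit c is encoded by 3 genes whose mature protein is the same. Atp5g1 (6.37 and 3.94) and Atp5g2 (6.32 and 3.86) had near-equal strengths in each library, and Atp5g3 had 2.61 and 2.40. Atp5g3 was the lowest of the 3 in both libraries. Atp5l, which encodes subunit g of the membrane part, was the weakest ATP synthase promoter of replicate 1 (1.79), and Atp5j was the weakest of replicate 2 (1.69).

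The assembly factors included the strongest promoter of the whole set. Ndufaf8, a complex I assembly factor, reached 10.03 in replicate 1 and 6.96 in replicate 2 at chr11:120098681-120098940, percentile 99.5 and 99.6 of all protein-coding promoters. This peak is shared with the coding gene Tepsin, which has a TSS on the other strand within 500 bp of an Ndufaf8 TSS. Ndufaf5, which modifies the complex I subunit encoded by Ndufs7, stood at 5.99 and 4.43, the second in replicate 2, while Ndufaf4 was the second in replicate 1 (6.09). Ndufaf1, an early complex I assembly factor, was the weakest of replicate 1 at 1.71, with 1.84 in replicate 2, and Sdhaf2, which attaches the flavin to Sdha, had 2.79 and 1.60. Sdhaf1, which helps to load iron-sulfur clusters into Sdhb, was the only assembly factor without a promoter peak by the GENCODE starts. A peak of 4.23 in replicate 1 and 2.71 in replicate 2 lay inside its record at chr7:30322321-30322560, 1335 bp downstream of the nearest GENCODE start, and overlapped the start window that RefSeq gives to this gene. With RefSeq starts added, the count of respiratory genes with a promoter peak became 91, a setting chosen after the values were seen. The other record without a peak was the second of Atp5o, the subunit that joins the head of ATP synthase to its stalk. That record lies on the minus strand, with its start at chr16:91926982. The first Atp5o record had a promoter peak of 3.21 and 2.28, which lay upstream of that start, at 4479 bp in replicate 2.

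The tissue isoforms stood apart from their ubiquitous partners. Of the 8 isoforms of muscle, lung, testis or hypoxic cells, 2 had a promoter peak in both libraries, and of the 7 ubiquitous partners all 7 did, where 58.8% of all protein-coding records do. Without the 8 tissue isoforms, 88 of 90 respiratory records (97.8%) had one. The 6 isoforms without a promoter peak account for every complex IV gene that lacked one. Peaks that also lay within 500 bp of another coding gene's TSS were then left out. A promoter peak in both libraries remained at 5 of 7 partners, without Cox4i1 and Ndufa4, and at 2 of 8 isoforms. The share of all protein-coding records was 49.1%. Genes are not replicates of a condition, so these counts carry no test.

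Among isoforms best known from heart and skeletal muscle, Cox6a2 and Cox8b had no promoter peak in either library, while their partners did. Cox6a1 stood at 6.38 in replicate 1 (95% counting interval 5.98 to 6.79) and 3.35 in replicate 2 (3.03 to 3.70). Cox8a stood at 4.97 (4.62 to 5.34) and 2.93 (2.63 to 3.26). These intervals take each signal step as 1 cut and cover counting error only. Cox7a1, the muscle form of subunit 7a, had a weak peak of 1.45 (1.26 to 1.65) in replicate 1 and 0.789 (0.636 to 0.968) in replicate 2, and its partner Cox7a2 had 3.53 (3.23 to 3.84) and 2.25 (1.98 to 2.54). The intervals of Cox7a1 and Cox7a2 did not overlap in either library. The Cox7a1 peak of replicate 2 was missing from the shorter peak list, which leaves 1 of 8 tissue isoforms there.

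Of the testis isoforms, Cox7b2 and Cox8c had no promoter peak and Cox6b2 had one. Cox6b2 stood at 1.28 (1.10 to 1.47) in replicate 1 and 1.12 (0.939 to 1.33) in replicate 2, percentile 24.1 and 26.3 of all protein-coding promoters. Its partner Cox6b1 stood at 2.21 (1.98 to 2.46) and 1.20 (1.01 to 1.42). The pair differed in replicate 1, where the intervals were separate, and did not differ beyond counting error in replicate 2. Cox7b, the X-linked partner of Cox7b2, had 1.40 (1.22 to 1.60) and 1.23 (1.03 to 1.44), the lowest of the ubiquitous partners in replicate 1. Cox4i2, the lung and hypoxia form of subunit 4, had no promoter peak and its partner Cox4i1 had 2.63 and 1.46. Ndufa4l2, induced by hypoxia, had none and its partner Ndufa4 had 3.15 and 3.24.

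**Figure D3:**
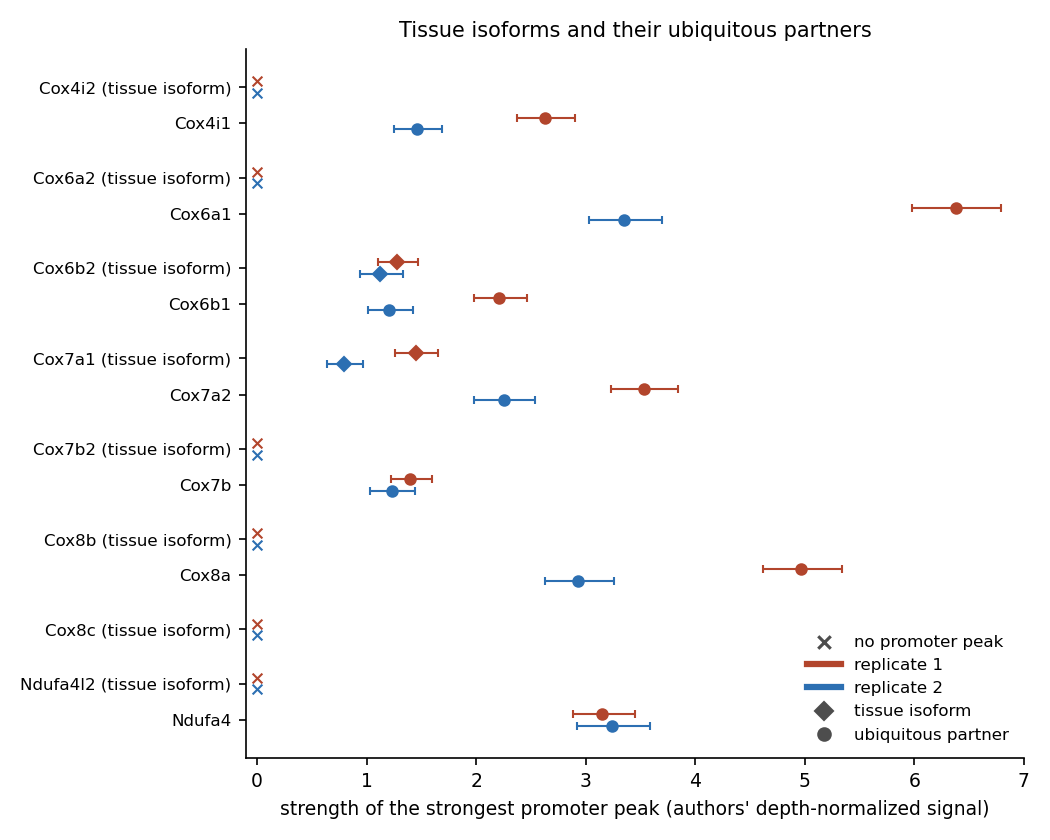
Strength of the strongest promoter peak (authors' depth-normalized signal, linear axis) of each tissue isoform (diamonds, upper of each pair) and its ubiquitous partner (circles), in replicate 1 and replicate 2; bars are 95% counting intervals with 1 step taken as 1 cut, and crosses mark genes with no promoter peak. Crosses appear at 6 of 8 tissue isoforms, and all 7 partners lie at 1.20 or above; Cox8c shares the partner Cox8a.

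The peaks nearest to the isoforms without a promoter peak lay at various distances. Ndufa4l2 had a strong peak 1847 bp upstream of its TSS, at 5.18 in replicate 1 and 4.29 in replicate 2 (chr10:127512881-127513120 in replicate 1), and 8 and 6 peaks away from any TSS within its body and 10 kb on each side. Cox6a2 had a weak one 1914 bp upstream (0.690 and 0.515), and Cox8b a peak of 1.82 and 1.77 upstream, at 2875 bp in replicate 1. Around Cox4i2, Cox8c and Cox7b2 the nearest lay more than 10 kb away in both libraries. The authors' deposited FDR files list stretches of cutting with an FDR below 0.05, and 0 of the 8 respiratory records without a promoter peak had such a stretch within 500 bp of a TSS in either library. A stretch in each of the 2 libraries, a stricter measure, was found at 0.305% of the 7866 protein-coding records without a promoter peak. With so low a share, 0 of 8 does not set the respiratory records apart. Marker genes of the tissues that use these isoforms mostly lacked a promoter peak too, while 58.8% of all protein-coding records had one in both libraries. The count was 1 of 10 for striated muscle and heart genes, 0 of 5 for brown fat genes and 0 of 8 for male germ line genes. At pericyte and mural genes, cells in which Cox4i2 and Ndufa4l2 are known to be expressed, it was 0 of 7, with Pdgfrb, Abcc9, Cspg4, Acta2 and Tagln lacking one in both. At parvalbumin interneuron genes, cells in which Cox6a2 is known from mouse, it was 4 of 6, not far from the share of all records. Pvalb was weak, at 0.938 and 0.609, percentile 16.5 and 8.10, and Lhx6 had no promoter peak in either library. In bulk tissue, fewer cells of a type and less accessibility per cell cannot be told apart.

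Sequence before the start also differed between Cox8b and Cox8a. The 100 bases before each RefSeq start, from RefSeq on GRCm38.p6 and both on the minus strand, are shown with CG pairs counted in them, since CG-rich sequence is typical of broadly used promoters.
Cox8b, chr7:140900447-140900546: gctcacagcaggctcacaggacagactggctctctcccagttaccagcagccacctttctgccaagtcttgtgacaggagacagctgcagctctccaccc
Cox8a, chr19:7217617-7217716: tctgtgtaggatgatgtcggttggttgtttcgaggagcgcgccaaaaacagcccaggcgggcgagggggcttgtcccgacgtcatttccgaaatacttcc
The Cox8b stretch holds 0 CG pairs and the Cox8a stretch 9, although GC content was 59.0% and 57.0%. This pair had the widest gap in CG pairs of the 4 pairs with windows in the RefSeq table, and was picked after the values were seen. The same stretch holds 7 CG pairs at Cox7b2, which also lacked a promoter peak, and 4 at Cox6b2, which had one. No footprint overlapped the Cox8b stretch in either library, and 1 in replicate 1 and 3 in replicate 2 overlapped the Cox8a stretch. Footprints lie inside accessible sites, so their absence at Cox8b, which had no promoter peak, is not a separate difference. Over the RefSeq start windows of 300 bases, the 4 tissue isoforms in the RefSeq table (Cox6b2, Cox7a1, Cox7b2 and Cox8b) had a median of 8.50 CG pairs and the 6 partners in it 18. By pair, the isoform had fewer at Cox8b and Cox8a (2 and 19), Cox7a1 and Cox7a2 (7 and 20) and Cox6b2 and Cox6b1 (10 and 17). At Cox7b2 and Cox7b the order was the other way (10 and 5), although Cox7b had the promoter peak.

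Many respiratory promoters were shared with a gene on the opposite strand. At 36 of 98 respiratory records (36.7%) a coding TSS on the other strand lay within 500 bp, against 11.1% of all protein-coding records. This is a property of the annotation and not of the libraries, and 1 peak can then serve both genes. The share was 75% in complex II, 50% in complex III and 41.7% in complex I, and 10% in complex IV. None of the 8 tissue isoforms had such a neighbour, but 8 genes are too few to set them apart from the 11.1% of all records. Some neighbours, picked here after the list was seen, also encode mitochondrial proteins. Sdhd lay beside Timm8b, an import chaperone, and Ndufs6 and Ndufb5 lay beside the mitochondrial ribosomal protein genes Mrpl36 and Mrpl47. Atp5j, a stalk subunit of ATP synthase, lay beside Gabpa, which encodes the ETS factor GABP alpha, a known activator of respiratory genes. The pair shared a peak, so both had strengths of 2.83 in replicate 1 and 1.69 in replicate 2.

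Short motifs of factors known to act on respiratory genes were searched on both strands of the RefSeq windows that run from 250 bases before to 50 bases after the start. The table holds 85 windows for 80 of the 97 respiratory symbols, among 20532 windows of 16853 protein-coding genes. The NRF1 core, GCGCATG, was present at 15 of 80 respiratory genes (18.8%) and at 5.54% of all protein-coding genes. The ETS motif, CCGGAAG, was present at 26.2%, against 13.2%, and the YY1 motif, AAGATGG, at 15.0%, against 7.21%. Open promoters differ in base composition, so shares were also taken over genes whose window overlapped a peak in both libraries (77 respiratory genes and 9160 protein-coding genes). There the NRF1 core stood at 19.5% of respiratory genes, against 8.61%, ETS at 27.3%, against 20.9%, and YY1 at 15.6%, against 8.20%. GC content of the open windows was a median 58.7% for respiratory genes and 62.0% for all protein-coding genes.

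Of the other motifs, SP was less frequent at open respiratory genes than at open protein-coding genes. The motif of the estrogen-related receptors (ERR) was more frequent, and CCAAT and CREB shares lay closer together. The SP motif, GGGCGG, was present at 48.1% of open respiratory genes, against 71.5% of open protein-coding genes. Over all genes in the table, open or not, it was present at 48.8% of respiratory genes, against 50.7%, and over all gene records within 500 bp on either side of the 5′ end at 73.5%, against 60.4%. CCAAT was present at 42.9% of open respiratory genes, against 42.4%. The CREB motif, TGACGTCA, was present at 4 respiratory genes (5.19%, against 4.13%). The motif of the estrogen-related receptors, CAAGGTCA, was also present at 4 (5.19%, against 0.775%), namely Atp5g3, Atp5l, Ndufs5 and Sdhd, and 0 of these 4 matches lay in a footprint in either library, against 14.3% in replicate 1 and 10% in replicate 2 of 70 sites in open protein-coding windows. So few sites do not separate these shares. MEF2 motifs, which occur at muscle genes, matched 0 respiratory windows and 1.24% of open protein-coding genes. At so low a share, 0 of 77 open respiratory genes does not show a lower frequency. At least 1 of the NRF1, ETS and YY1 motifs was present at 39 of 80 respiratory genes (48.8%, against 23.2% of all protein-coding genes in the table) and at least 2 at 9 genes (11.2%, against 2.71%). Over open windows the shares were 50.6%, against 33.2%, and 11.7%, against 4.42%. All 3 were present at 0 respiratory genes and at 0.0831% of all protein-coding genes. A match is a run of letters and not a binding site.

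**Figure D4:**
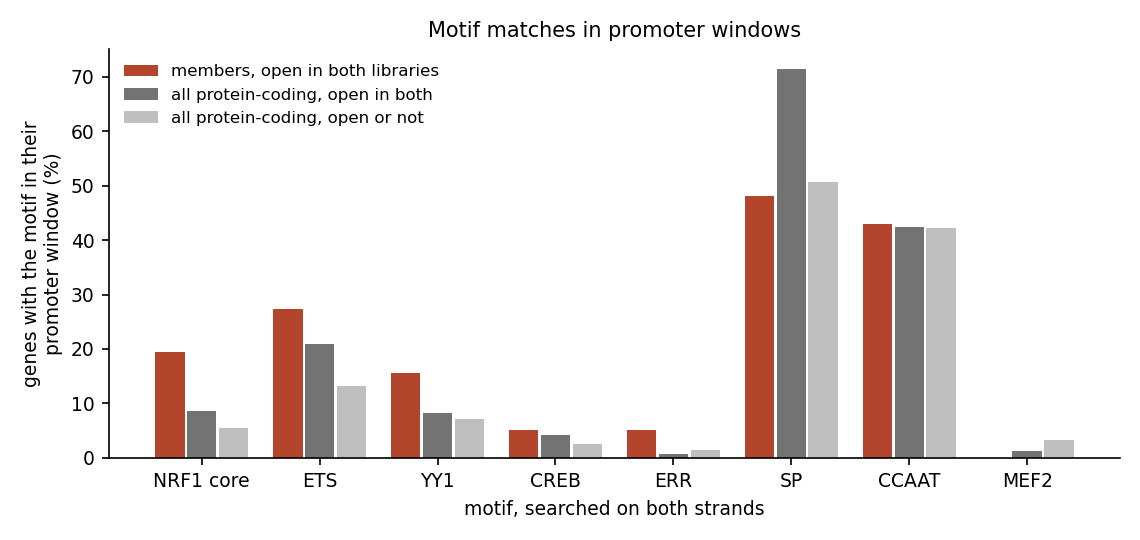
Share of genes with each motif in the window from 250 bases before to 50 bases after a RefSeq start, for respiratory genes with an open window in both libraries (red, 77 genes), all protein-coding genes with an open window (dark grey, 9160) and all protein-coding genes in the table (light grey, 16853). NRF1, ETS, YY1 and ERR shares are higher in the respiratory genes, and the SP share is lower among open windows (48.1% against 71.5%), with a smaller difference over all genes in the table (48.8% against 50.7%) and the opposite order over all gene records within 500 bp on either side of the 5′ end (73.5% against 60.4%).

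Matches of the NRF1 core in respiratory promoters mostly lay in footprints. Of 16 separate sites, 75% overlapped a footprint in replicate 1 and 87.5% in replicate 2, against 66.6% and 68.9% of 821 sites in open protein-coding windows. The sites in footprints of both libraries included 7 in which the core reads the same way on both strands, giving a run of 10 bases. They are shown, 5′ to 3′ on the strand of the gene, with the run in capitals and 30 bases in all (RefSeq, GRCm38.p6).
Atp5g2, chr15:102671070-102671099, minus strand: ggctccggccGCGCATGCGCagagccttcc
Atp5k, chr5:108434432-108434461, minus strand: gctttcactgcgGCGCATGCGCctttctgg
Cox6a1, chr5:115349101-115349130, minus strand: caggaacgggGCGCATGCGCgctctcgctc
Ndufa11, chr17:56717692-56717721, plus strand: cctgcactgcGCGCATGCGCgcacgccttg
Ndufaf4, chr4:24897959-24897988, plus strand: cccagatgtctGCGCATGCGCctgtgcgga
Ndufaf5, chr2:140170652-140170681, plus strand: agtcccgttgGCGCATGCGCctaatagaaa
Uqcrc1, chr9:108936668-108936697, plus strand: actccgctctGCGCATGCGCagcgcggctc
They come from complexes I, III and IV, ATP synthase and assembly factors, and their places range from 162 bases before the start at Cox6a1 to 30 bases after it at Uqcrc1.

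ETS matches were less often in footprints. Of 25 respiratory sites, 60% overlapped one in replicate 1 and 44.0% in replicate 2, against 43.9% and 36.9% of 2130 sites in open protein-coding windows. Of the 25 matches, 8 (32.0%) began after the start, against 21.7% of 2385 matches in open protein-coding windows. Matches after the start at Atp5k, Atp5l, Cox8a and Sdhb also lay in footprints of both libraries and are not shown. The 6 matches before the start that lay in footprints of both libraries are shown with the motif in capitals. It reads CTTCCGG where it lies on the other strand.
Atp5j, chr16:84835020-84835049, minus strand: tagctgagggacCCGGAAGcacttaccctc
Ndufaf1, chr2:119662835-119662864, minus strand: gcgggaccacaaCCGGAAGcgtggcgaacc
Ndufaf8, chr11:120098915-120098944, plus strand: cgcgttcgactCCGGAAGaggcagggccca
Ndufb7, chr8:83566727-83566756, plus strand: gcctagatgacCCGGAAGacactgaagggg
Ndufs3, chr2:90904731-90904760, minus strand: ccccgcgtccgcCCGGAAGaagagtcactg
Uqcrh, chr4:116075063-116075092, minus strand: gagtatgccgcaCTTCCGGccaggtcgccg
The Atp5j match lies in the promoter shared with Gabpa, 61 bases before the Atp5j start.

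YY1 matches mostly lay after the start. Of 12 matches in open respiratory windows, 9 (75%) began after the start and read in the direction of the gene, against 34.4% of 811 matches in open protein-coding windows. Of the respiratory matches 50% overlapped a footprint in replicate 1 and 33.3% in replicate 2, against 34.2% and 29.3% of 751 separate sites in open protein-coding windows. The 3 in footprints of both libraries are shown with the motif in capitals.
Ndufaf8, chr11:120098933-120098962, plus strand: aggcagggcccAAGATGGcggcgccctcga
Ndufc1, chr3:51408916-51408945, minus strand: agcctgcggaacAAGATGGcgccgtccgta
Ndufs7, chr10:80249462-80249491, plus strand: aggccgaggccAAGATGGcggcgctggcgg
Ndufaf8, the strongest respiratory promoter, thus has an ETS match that begins 8 bases before the start and a YY1 match that begins 10 bases after it. Both lie in footprints of both libraries. The YY1 match, at chr11:120098944-120098950, lies just past the end of the strongest peak, at 120098940 in both libraries.

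Respiratory promoters held about as many footprints as others, with more of them just before the start. The median strongest promoter peak of a respiratory gene overlapped 5 footprints in each library, against 5 in replicate 1 and 4 in replicate 2 over all protein-coding genes. At least 1 was present in both libraries at 89 of 90 respiratory genes (98.9%), against 95.0% of protein-coding genes with such a peak in both. Atp5g1 had the most, with 10 in replicate 1 and 12 in replicate 2, followed by Ndufs7 (9 and 11) and Ndufv2 (8 and 11), another core complex I subunit with an iron-sulfur cluster. Their peaks were longer than the median of 240 bp, at 520 bp for Atp5g1 and Ndufs7 and 600 bp for Ndufv2 in replicate 2. The exception was Ndufa13, the weakest promoter of replicate 1, with 0 footprints in both libraries. In the open RefSeq windows the share of bases in a footprint was highest 20 to 11 bases before the start, at 40.6% in replicate 1 and 44.1% in replicate 2 for respiratory genes, against 31.0% and 26.2% for all protein-coding genes. Respiratory peaks were stronger, and footprints were not compared at equal strength.

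**Figure D5:**
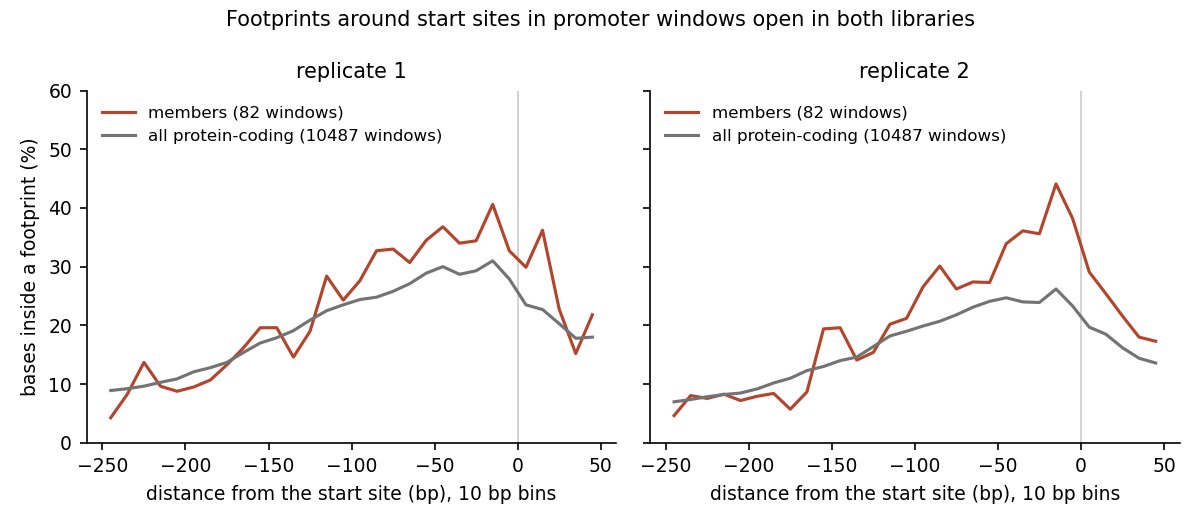
Share of bases inside a footprint by distance from the RefSeq start (10 bp bins; negative is upstream) for respiratory genes (red, 82 open windows) and all protein-coding genes (grey, 10487 open windows), in replicate 1 at the left and replicate 2 at the right. Both curves are highest in the bin 20 to 11 bases before the start, at 40.6% and 44.1% for respiratory genes, against 31.0% and 26.2%.

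The strongest promoter peaks were also centred close to the start. The midpoint lay within 100 bp of a TSS for 86.7% of respiratory genes in replicate 1 and 85.6% in replicate 2, against 67.6% and 64.8% of all protein-coding genes. Among the classes, only complex III lay below all protein-coding genes, at 62.5% in each library. Peaks were not compared at equal strength or without shared promoters. The strongest peaks of the 2 libraries overlapped at 88 of the 90 genes (97.8%, against 94.3% of protein-coding genes with a promoter peak in both). The exceptions were Ndufa11 and Ndufaf3, where the libraries' strongest peaks were separate.

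Accessible sites away from promoters were not more frequent than elsewhere. Other peaks, which lay in the gene body or within 10 kb of it and within 500 bp of no annotated TSS, were present in both libraries at 57 of 98 respiratory records (58.2%), against 54.4% of all protein-coding records. The median was 1 per gene in each library for respiratory genes and for all. Respiratory genes are shorter, with a median of 7565 bp, against 17425 bp, and length was not matched. Counted over the gene body alone, 15 of 98 respiratory records had other peaks in both libraries, a lower share than the 33.5% of all protein-coding records. Ndufb7 had 14 in replicate 1 and 2 in replicate 2, Ndufaf2 had 8 and 4, and Atp5h, a stalk subunit of ATP synthase, had 6 and 4. The second Atp5o record had 14 and 11 over a long record at chr16:91684398-91926982, which takes in neighbouring genes. The 10 kb flanks can likewise hold sites of other genes.

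Replicate 1 was stronger at most respiratory promoters. The median log2 ratio of replicate 1 over replicate 2 was 0.67 for respiratory promoters, against 0.63 for all protein-coding promoters called in both. Strength was higher in replicate 1 at 85 respiratory genes (94.4%, against 95.5% of all protein-coding promoters called in both) and in replicate 2 at 5. The largest ratios were those of Uqcrfs1, the Rieske iron-sulfur protein of complex III (5.84 and 2.60, log2 1.17), Sdhb (4.97 and 2.23, log2 1.16) and Ndufa3, an accessory subunit of complex I (2.77 and 1.32, log2 1.07). The lowest was that of Atp5l (1.79 and 2.33, log2 -0.38). Ndufc2 and Ndufaf1 followed, at log2 -0.10 each. Since the deposited strengths are already normalized for depth, the cause of the offset between libraries was not tested.

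Genes of the same pathway outside the naming rule had open promoters too. All 30 listed assembly factors of the respiratory complexes with other names had a promoter peak in both libraries, with medians of 4.18 in replicate 1 and 2.71 in replicate 2. Foxred1, a complex I assembly factor, was the strongest in replicate 1 (7.76, with 4.28 in replicate 2) and Pet100, a complex IV assembly factor, in replicate 2 (4.85, with 7.65 in replicate 1). Atpaf1, an ATP synthase assembly factor, was the weakest in both, at 1.77 and 0.995. Cycs, which encodes somatic cytochrome c, stood at 7.63 and 5.21, while Cyc1, the cytochrome c1 subunit of complex III, stood at 1.75 and 1.18. A promoter peak was called in both libraries at all 18 listed regulators of respiratory genes (58.8% of all protein-coding records do), with medians of 3.77 and 2.16. Esrra, an estrogen-related receptor, was at the high end with 8.43 and 4.77. Nrf1 stood at 3.42 and 1.80 and Tfam, the mitochondrial transcription factor, at 4.17 and 2.00. At the low end, Ppargc1a, the coactivator known as PGC-1 alpha, stood at 0.630 and 0.489, percentile 8.34 and 4.44, and Esrrb, another estrogen-related receptor, at 0.636 and 0.489. Promoter strength is accessibility at the DNA and was not set against the level of any transcript, which these data do not measure.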

How the data were processed

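DNase-seq of 2 frontal cortex libraries, 1 group, was analysed from the deposited files. Each library's peaks, footprints and FDR stretches were called on its own, per the deposited notes, on mm10, and no aligner or caller is given in the sources used here. Peak strength is the authors' signal, normalized for depth. The deposited FDR values (p-value scale) are all below 0.05. The longer of 2 peak lists was used, the shorter as the stricter alternative.

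Peaks and footprints were joined to GENCODE M21 protein-coding genes by overlap of at least 1 bp (Python 3.11.15, numpy 2.4.6, pandas 2.3.3), counting intervals came from scipy 1.17.1 and sequences from RefSeq tables with pysam 0.24.0, whose windows equalled the GRCm38 FASTA in 20532 of 20532 cases. Figures were drawn with matplotlib 3.10.9. The functions were tested on simulated data. The genes of the mitochondrial chromosome were left out. Complex IV here includes Ndufa4 and Ndufa4l2, and assembly factors are Ndufaf and Sdhaf genes.

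Named genes were the isoforms and partners, the 2 highest and 2 lowest promoters per class by mean rank, those without a promoter peak, those with most other peaks or footprints, the extreme replicate ratios and the Atp5g genes; the X-linked genes, the neighbours and the motif examples were chosen after their values were seen. Members, lists and motifs were chosen with earlier results of these data known.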

Additional observations from a re-analysis of the deposited data

How the results depend on the processing

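Precision is limited by 2 libraries of unknown depth and by thresholds behind the peak lists that are not stated. The respiratory count of 90 lay between 87 and 91 under 8 of its settings, with 90 in each library alone and 90 without the second Atp5o record. That record had no promoter peak, so leaving it out could not change the count. The count fell to 56 when peaks shared with a neighbouring coding gene were left out. Tissue isoforms were 1 with the shorter peak list, against 2 in the reported setting, and were 2 without replicate 1 and without replicate 2. Ubiquitous partners were 7, or 5 without shared peaks, where Cox4i1 and Ndufa4 lost theirs. Median strength ran from 2.68 without replicate 1 to 4.18 without replicate 2. Median footprints were 6 when all within 500 bp of a TSS were counted and 5 otherwise. Other peaks were found at 15 of 98 records over the gene body alone (33.5% of all protein-coding records), at 71 with 25 kb flanks (69.1%) and at 39 with the shorter list (39.3%). They were found at 59 without replicate 1 (56.8%) and at 65 without replicate 2 (65.3%). Within 500 bp on either side of the record's 5' end, YY1 motifs were present at 33.7% of respiratory genes (18.4% of all protein-coding genes), ERR at 23.5% (5.52%), SP at 73.5% (60.4%), CCAAT at 60.2% (70.7%) and MEF2 at 4.08% (9.30%). In the strongest promoter peak of replicate 1, YY1 stood at 25.6% (7.34%) and ERR at 3.33% (0.565%). Over all genes, the respiratory SP share was lower in the RefSeq windows (48.8% against 50.7%) and in the strongest peaks of replicate 1 (47.8% against 65.3%), and higher only in the wide windows. The CCAAT share was higher in the RefSeq windows (43.8% against 42.3%) and lower in those peaks (30% against 36.0%) and in the wide windows. RefSeq starts, leaving out the second Atp5o record and the settings for the ubiquitous partners were chosen after seeing the data. No paired analysis was possible because the data hold 1 group.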
